A study of Mus musculus with 8 samples.

Results

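The Bcl2 family genes examined here are 10 of the 21896 protein-coding genes of the mouse: the survival genes Bcl2, Bcl2l1 and Mcl1, the pore-forming death genes Bax and Bak1, and the BH3-only death genes Bcl2l11, Bbc3, Pmaip1, Bmf and Bid. They were chosen by name. Every accessible region with a peak summit in a gene body or within 50 kb of it was assigned to that gene, which gave 144 of the 60835 regions called in the series. The regions come from ATAC-seq, in which a transposase cuts accessible chromatin and inserts sequencing adapters there.

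Group 2 innate lymphoid cells (ILC2s) were isolated from the thymus of C57BL/6 mice carrying the plck-Id1 transgene. Id1 is an inhibitor that pairs with E proteins and keeps them off DNA, and plck is the proximal Lck promoter, which is active in developing T cells. The cells were stimulated, transduced with a retrovirus, sorted for GFP and expanded with cytokines. The E47 groups received a virus for GFP and E47-ER, in which the E protein E47 is joined to the ligand-binding part of the oestrogen receptor, and the GFP groups received a virus for GFP alone. All cells, GFP controls included, carried the Id1 transgene and were treated with 4-hydroxytamoxifen, the ligand of the fusion protein. There were 2 samples in each of 4 groups: E47 and GFP after 4 h, and E47 and GFP after 16 h. Whether both samples in a group were separate cultures or animals, how many mice were pooled and how old they were is not stated in the labels. The authors made 1 peak list per group from its 2 samples, so values per sample are not analysed here, no test between groups was possible, and all differences below are descriptions. The 95% intervals given (exact Clopper-Pearson) cover counting error only.

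Bcl2 family proteins decide whether mitochondria release cytochrome c and start cell death. The guardians Bcl-2, Bcl-xL (from Bcl2l1) and Mcl-1 hold the effectors Bax and Bak in check, and the BH3-only proteins Bim (Bcl2l11), Puma (Bbc3), Noxa (Pmaip1), Bmf and Bid free or activate the effectors. In lymphocytes Bcl-2 and Mcl-1 are known as survival factors maintained by cytokines such as IL-7, and Bim as the main killer after cytokine loss. E proteins are transcription factors that bind the E-box, spelled CANNTG, and the forms CAGCTG and CACCTG or its complement CAGGTG are the ones they are known to prefer.

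The start sites of 9 of the 10 genes were matched in RefSeq's promoter sequences (build GRCm38.p6, the same assembly as mm10), which run from 250 bases before to 50 after a start and gave 16 windows. The windows printed here are those of Bmf, because its 3 starts differed in whether a region was called, of Bcl2l11, because 1 of its 2 starts holds CAGCTG, and of Bcl2, because its start region had the lowest E47 over GFP ratio among the start regions, at 4 h. E-boxes are in capitals.
Bmf, downstream start, minus strand, chr2:118544538-118544837: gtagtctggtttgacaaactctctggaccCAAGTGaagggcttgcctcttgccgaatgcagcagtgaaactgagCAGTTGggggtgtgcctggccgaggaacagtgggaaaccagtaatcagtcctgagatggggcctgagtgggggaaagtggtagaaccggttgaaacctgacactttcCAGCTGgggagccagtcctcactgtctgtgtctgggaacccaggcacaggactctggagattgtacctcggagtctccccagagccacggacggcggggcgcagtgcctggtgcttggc
Bmf, middle start, minus strand, chr2:118547550-118547849: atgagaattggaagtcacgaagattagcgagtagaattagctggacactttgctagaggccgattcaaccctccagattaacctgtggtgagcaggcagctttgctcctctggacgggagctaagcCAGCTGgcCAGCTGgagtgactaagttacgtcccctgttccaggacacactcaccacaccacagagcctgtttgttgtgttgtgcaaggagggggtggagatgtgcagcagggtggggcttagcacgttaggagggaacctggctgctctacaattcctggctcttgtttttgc
Bmf, upstream start, minus strand, chr2:118549637-118549936: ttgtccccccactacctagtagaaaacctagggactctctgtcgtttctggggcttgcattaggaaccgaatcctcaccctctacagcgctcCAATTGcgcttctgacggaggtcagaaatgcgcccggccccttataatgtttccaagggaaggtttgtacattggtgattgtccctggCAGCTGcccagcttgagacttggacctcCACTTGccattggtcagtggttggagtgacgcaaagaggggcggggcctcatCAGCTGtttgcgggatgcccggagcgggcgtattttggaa
Bcl2l11, upstream start, plus strand, chr2:128125788-128126087: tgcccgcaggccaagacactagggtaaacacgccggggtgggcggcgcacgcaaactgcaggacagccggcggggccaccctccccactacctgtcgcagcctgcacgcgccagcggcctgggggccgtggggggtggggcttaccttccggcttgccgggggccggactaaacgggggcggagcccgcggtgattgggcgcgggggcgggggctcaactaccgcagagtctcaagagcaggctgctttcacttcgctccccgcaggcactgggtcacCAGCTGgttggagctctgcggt
Bcl2l11, downstream start, plus strand, chr2:128127325-128127624: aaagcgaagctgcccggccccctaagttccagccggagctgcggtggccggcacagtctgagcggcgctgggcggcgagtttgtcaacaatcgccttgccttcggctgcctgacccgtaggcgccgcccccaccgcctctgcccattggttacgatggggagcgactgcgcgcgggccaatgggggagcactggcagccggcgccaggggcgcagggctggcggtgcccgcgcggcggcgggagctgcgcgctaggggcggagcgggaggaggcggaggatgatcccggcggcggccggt
Bcl2, minus strand, chr1:106714241-106714540: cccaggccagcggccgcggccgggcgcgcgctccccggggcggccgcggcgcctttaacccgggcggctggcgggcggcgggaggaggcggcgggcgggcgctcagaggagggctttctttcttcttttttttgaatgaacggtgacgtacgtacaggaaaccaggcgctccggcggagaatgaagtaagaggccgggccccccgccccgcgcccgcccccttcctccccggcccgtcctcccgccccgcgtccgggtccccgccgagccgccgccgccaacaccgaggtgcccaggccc
All 3 Bmf windows hold CAGCTG, with 1 copy at the downstream start and 2 copies at each of the other starts. The upstream Bcl2l11 window holds 1 copy, 29 bases after the start, and the downstream Bcl2l11 and the Bcl2 window hold no E-box of any spelling. Over all members CAGCTG was in 4 of 16 windows (25.0%), beside 16.3% of 32851 promoters of the same length. These 4 are the 3 Bmf windows and the upstream Bcl2l11 window, so they come from 2 genes. CACCTG or CAGGTG was in 2 of 16 windows (12.5%), both of Bbc3, beside 20.2% of all promoters, and CANNTG in any form was in 11 of 16 (68.8%), beside 72.3%. Motifs were searched on both strands, and the first 2 forms are also counted in CANNTG.

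Values are compared below by call and by fold. A region is E47-only or GFP-only at a time when the other list of that time has no region overlapping it by 1 bp or more. The fold is the authors' fold enrichment over local background, taken at the highest peak of the region, and it belongs to its own list. Strength is given as the rank of its −log10 p within that list, as a percentile. The 4 lists held 49811 regions (E47 4 h), 42665 (GFP 4 h), 40649 (E47 16 h) and 52846 (GFP 16 h). The longer list was therefore that of E47 at 4 h and that of GFP at 16 h, and counts of regions in 1 list move with list length. Read depth is unknown. In bulk samples, a change in accessibility per cell and a change in the share of cells that have the region open cannot be told apart. In each list 8 of 10 ILC2 marker genes had a region at a gene end or start, but not the same 8. Gata3, Il17rb, Il13, Il5, Areg, Klrg1 and Il2ra had one in every list and Rora in none. Il1rl1 had none in GFP at 4 h, the only list in which Icos had one. Of 8 T cell markers, 5 had one in the E47 4 h list, 4 in GFP 4 h, 5 in E47 16 h and 5 in GFP 16 h, with Cd3d, Cd4, Cd28 and Bcl11b in every list and Cd3g, Cd8a and Cd8b1 in none. Of 4 NK cell markers, Prf1 was in every list and Eomes in both E47 lists and neither GFP list. B cell markers had 0, 0, 0 and 1 of 5 in the same order, myeloid markers 2, 1, 1 and 1 of 5, and mast cell markers 0 of 3 in every list. The part of other cell types in the results was not tested.

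Each gene of the family had an open start, or for Pmaip1 an open gene end, in every group. This did not hold for every annotated start. The most downstream start of Bcl2l1 (chr2:152828489) and the middle start of Bmf had no region over their windows in any list. The downstream start of Bmf had none in E47 at 16 h. All 9 genes with a matched start had a start region called in all 4 lists; over all genes with a start entry, 52.2% of 17491 did. Pmaip1 has no matched start, and the region at its lower-coordinate gene end was also in all 4 lists. Across the 13 regions at a start, or at the Pmaip1 gene end, that were in all 4 lists, the ratio of E47 to GFP fold ran between 0.743 and 1.21 at 4 h and between 0.855 and 1.18 at 16 h. For comparison, 90% of all regions shared at a time had ratios between 0.781 and 1.48 at 4 h and between 0.614 and 1.26 at 16 h. Of these 13 ratios at each time, only that of the Bcl2 start at 4 h lay outside that range.

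**Figure D1:**
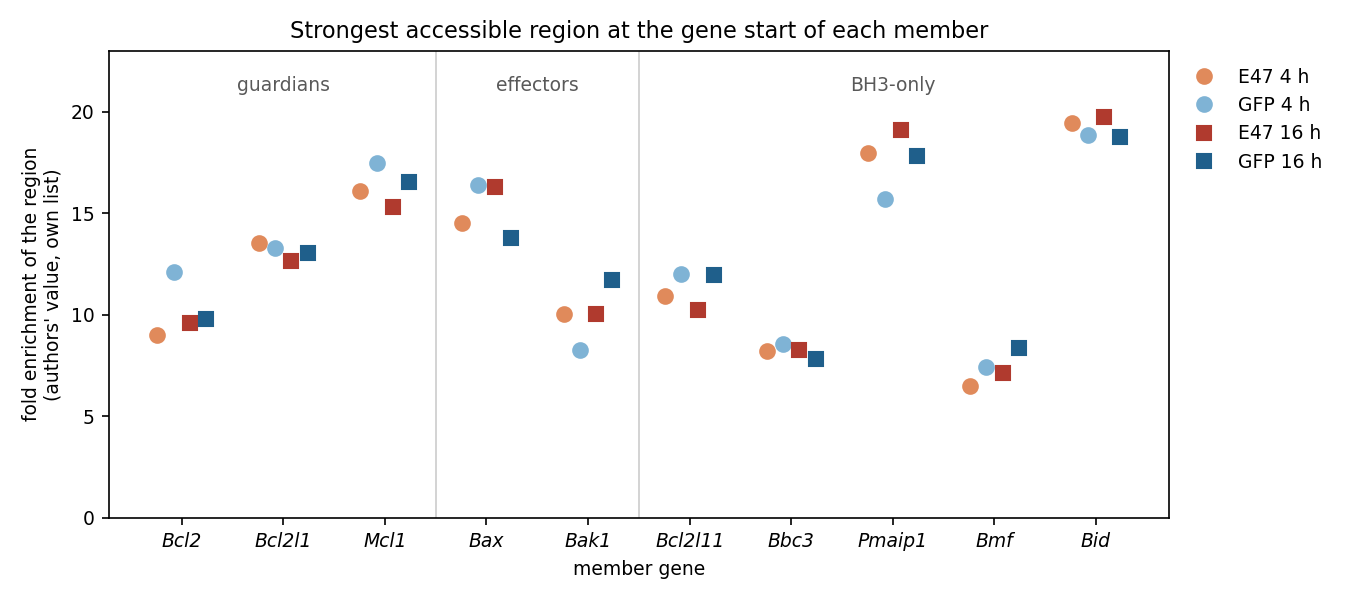
Fold enrichment (y axis, the authors' value in each list) of the strongest region at the start of each gene (x axis; for Pmaip1 the region at a gene end), with 1 point per group list and no error bars because each group has 1 list. The folds of the lists ran between 6.51 and 8.37 at Bmf and between 18.7 and 19.7 at Bid. The ranges of several other genes overlap, for example 8.99 to 12.1 at Bcl2 and 8.28 to 11.7 at Bak1.

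Counted over the 10 genes, calls in the lists as deposited followed those of the whole lists. At 4 h, 29 of 122 E47 regions were E47-only (23.8%, interval 16.5 to 32.3), beside 24.9% of all E47 4 h regions, and 9 of 102 GFP regions were GFP-only (8.82%, 4.11 to 16.1), beside 12.4%. At 16 h, 15 of 105 were E47-only (14.3%, 8.22 to 22.5), beside 11.8%, and 31 of 121 were GFP-only (25.6%, 18.1 to 34.4), beside 31.6%. Each interval includes the share over all regions. With the 4 lists cut to equal length, the E47-only and GFP-only counts were 21 of 107 and 8 of 94 at 4 h (19.6% and 8.51%, beside 15.7% and 15.3% of all regions so cut). At 16 h they were 23 of 105 and 21 of 101 (21.9% and 20.8%, beside 18.8% and 19.3%), so that the excess of GFP-only regions at 16 h was seen in the lists as deposited and not in lists of equal length. At 4 h the members kept more E47-only than GFP-only regions in lists of equal length. All regions so cut were nearly even at that time. No intervals were computed for lists of equal length, so whether this difference exceeds counting error was not tested. At both times 5 of 144 regions were E47-only (3.47%, 1.14 to 7.92), beside 3.43% of all regions, and 4 of 144 were GFP-only (2.78%, 0.762 to 6.96), beside 4.56%. In lists of equal length these counts were 10 of 128 E47-only (7.81%, beside 4.74% of all regions so cut) and 5 of 128 GFP-only (3.91%, beside 5.01%). All 4 lists held 78 of 144 (54.2%, 45.7 to 62.5), beside 48.8%. By gene, 4 of 10 had a region E47-only at both times (Bcl2, Bcl2l1, Mcl1 and Bmf) and 4 of 10 one GFP-only at both times (Bcl2l1, Mcl1, Bak1 and Pmaip1). Over all protein-coding genes these shares were 16.2% and 19.4%, but the members also had more regions, a median of 12.5 per gene against 6 over all genes.

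**Figure D2:**
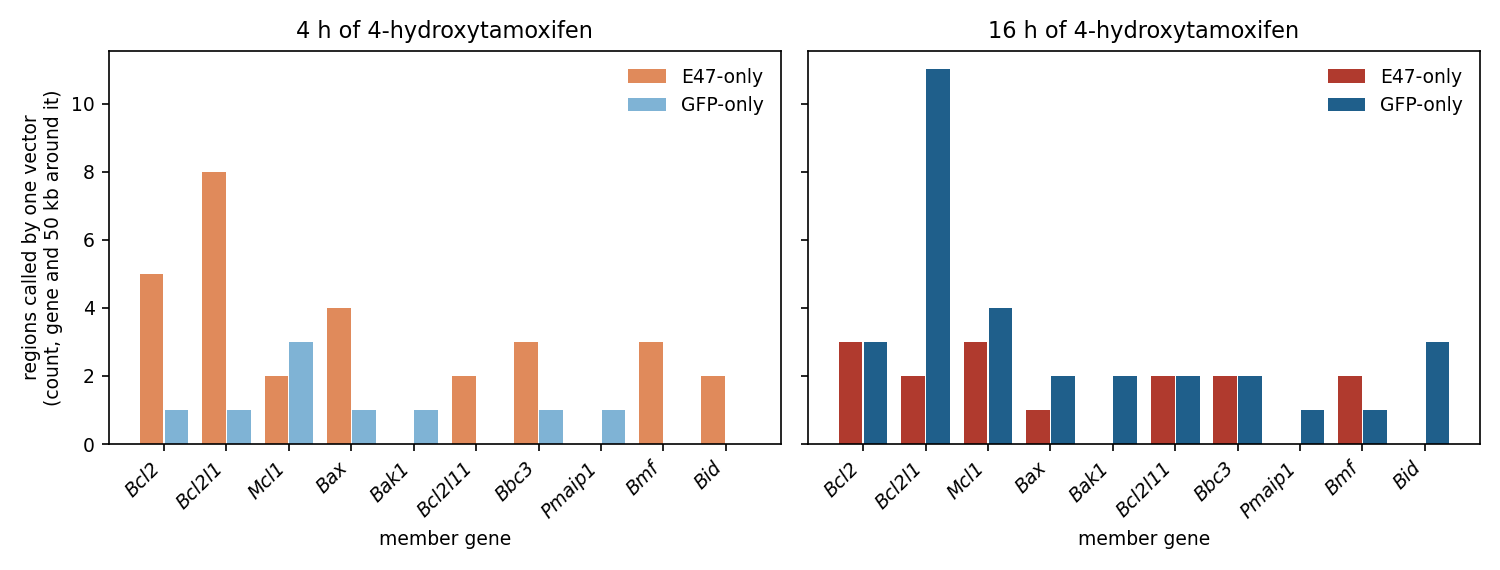
Number of E47-only and GFP-only regions (y axis) near each gene (x axis) at 4 h (left) and 16 h (right), counted from 1 list per group. E47-only bars are the taller ones at most genes at 4 h and GFP-only bars at 16 h, each from the longer list of that time. With lists of equal length there were 21 E47-only and 8 GFP-only regions over the 10 genes at 4 h. At 16 h there were 23 and 21. Bcl2l1 has the tallest bars at both times, 8 E47-only at 4 h and 11 GFP-only at 16 h.

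Bcl2 (chr1:106538176-106714290) encodes the founding survival protein of the family and is the longest of the 10 genes, at 176 kb. It had 20 regions, 14 of them inside the gene away from its start, and 11 were in all 4 lists. At the gene start the fold was 8.99 in E47 and 12.1 in GFP at 4 h, and 9.57 in E47 and 9.81 in GFP at 16 h. The start was thus lower in E47 at 4 h, and E47 and GFP were nearly level at 16 h. The highest fold in 3 of the 4 lists lay inside the gene at chr1:106612399-106613237, with 18.2 in E47 and 16.5 in GFP at 4 h and 15.5 in E47 and 16.9 in GFP at 16 h, so that it was higher in E47 at 4 h and lower at 16 h. In E47 at 16 h a region at the start of Kdsr (chr1:106758733-106760129) was higher, with 16.4. A second region inside the gene, 66.7 kb from the start at chr1:106647243-106647807, had 15.2 in E47 and 8.62 in GFP at 4 h and 11.9 in E47 and 8.72 in GFP at 16 h. E47 was above GFP there at both times, by 1.76-fold and 1.36-fold. Of all regions in 4 lists, 1.12% had both ratios as high.

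Bcl2 had 5 E47-only and 1 GFP-only region at 4 h, and 3 of each at 16 h. The strongest at 4 h was an E47 region just inside the start (chr1:106712334-106712645, fold 3.85, percentile 28.5) that was also called in both 16 h lists. The strongest at 16 h was a GFP region inside the gene (chr1:106581836-106582171, fold 9.44, percentile 37.1) that was also called in both 4 h lists. At both times, 2 regions were E47-only: one inside the gene at chr1:106606923-106607364, whose fold was 6.36 at 4 h and 5.29 at 16 h, and one 24.0 kb before the start, inside the neighbouring gene Kdsr, at chr1:106738163-106738346, with 7.66 and 8.34. Bcl2 was the single member with more than 1 such region.

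Bcl2l1 (chr2:152758732-152833803) encodes the survival protein Bcl-xL and had the most regions of the family, 28, and the lowest share in all 4 lists, 9 of 28. Its main start region had folds of 13.5 in E47 and 13.3 in GFP at 4 h and 12.6 in E47 and 13.1 in GFP at 16 h, so its highest folds were level between vectors. In both 16 h lists this region was split. The piece over the start at chr2:152831728 had 7.87 in E47 and 6.47 in GFP at 16 h. The highest fold stood 14.2 kb away, inside Tpx2, with 22.0 in E47 and 19.8 in GFP at 4 h and 22.2 in E47 and 20.7 in GFP at 16 h. In the gene and 50 kb around it there were 8 E47-only and 1 GFP-only region at 4 h, and 2 E47-only and 11 GFP-only regions at 16 h. Of these, 7 E47-only and 1 GFP-only region at 4 h, and 2 E47-only and 8 GFP-only regions at 16 h, lay in the gene body. At 4 h the strongest of these was an E47 region in the gene (chr2:152787602-152787810, fold 5.13, percentile 51.5), which was also called in GFP at 16 h.

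The strongest Bcl2l1 region called by 1 vector at 16 h lay 17360 bp into the gene at chr2:152816286-152816854. Its fold was 9.96 in E47 and 4.54 in GFP at 4 h, a ratio of 2.19, and 9.91 in E47 at 16 h, when GFP had no call. It kept its E47 value between the times, at percentile 66.5 and then 62.8, whereas the GFP value stood at percentile 2.08 of its list at 4 h. E47-only at both times was a weaker region inside the gene (chr2:152794367-152794915, folds 4.52 and 3.66 at 4 h and 16 h). GFP-only at both times was another inside it (chr2:152804952-152805142, folds 4.57 and 6.70). The window also holds Id1, which is the nearest gene of 4 of the regions. Beside Id1 itself the fold was 9.90 in E47 and 9.90 in GFP at 4 h and 9.99 in E47 and 13.1 in GFP at 16 h. Every group carries an Id1 transgene, and whether reads of the transgene add to this region cannot be told.

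Mcl1 (chr3:95656944-95663179) encodes a short-lived survival protein. Its start region had 16.1 in E47 and 17.5 in GFP at 4 h and 15.3 in E47 and 16.6 in GFP at 16 h, slightly lower in E47 at both times and within the range of 90% of all regions. The highest fold in its window was at the start of Ensa, with 20.6 in E47 and 19.4 in GFP at 4 h and 21.1 in E47 and 22.2 in GFP at 16 h. Mcl1 had 15 regions, 7 in all 4 lists, with 2 E47-only and 3 GFP-only regions at 4 h and 3 E47-only and 4 GFP-only regions at 16 h. Past the gene, of the regions called in 1 vector at both times, the nearer was GFP-only and the farther E47-only. Regions called in 1 vector at a single time did not keep this order, as one 30.6 kb past the gene was called only in GFP at 16 h. The region 2.08 kb past the gene (chr3:95665093-95665358) was GFP-only at both times, with 3.61 at 4 h and 5.55 at 16 h. Another, 5.56 kb past it (chr3:95668502-95668975), was E47-only at both times, with 6.88 and 5.49. It was the strongest Mcl1 region called in 1 vector at either time, at percentiles 67.7 and 52.4, and of the 5 E47-only regions at both times it alone stood above the median of both its lists.

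**Figure D3:**
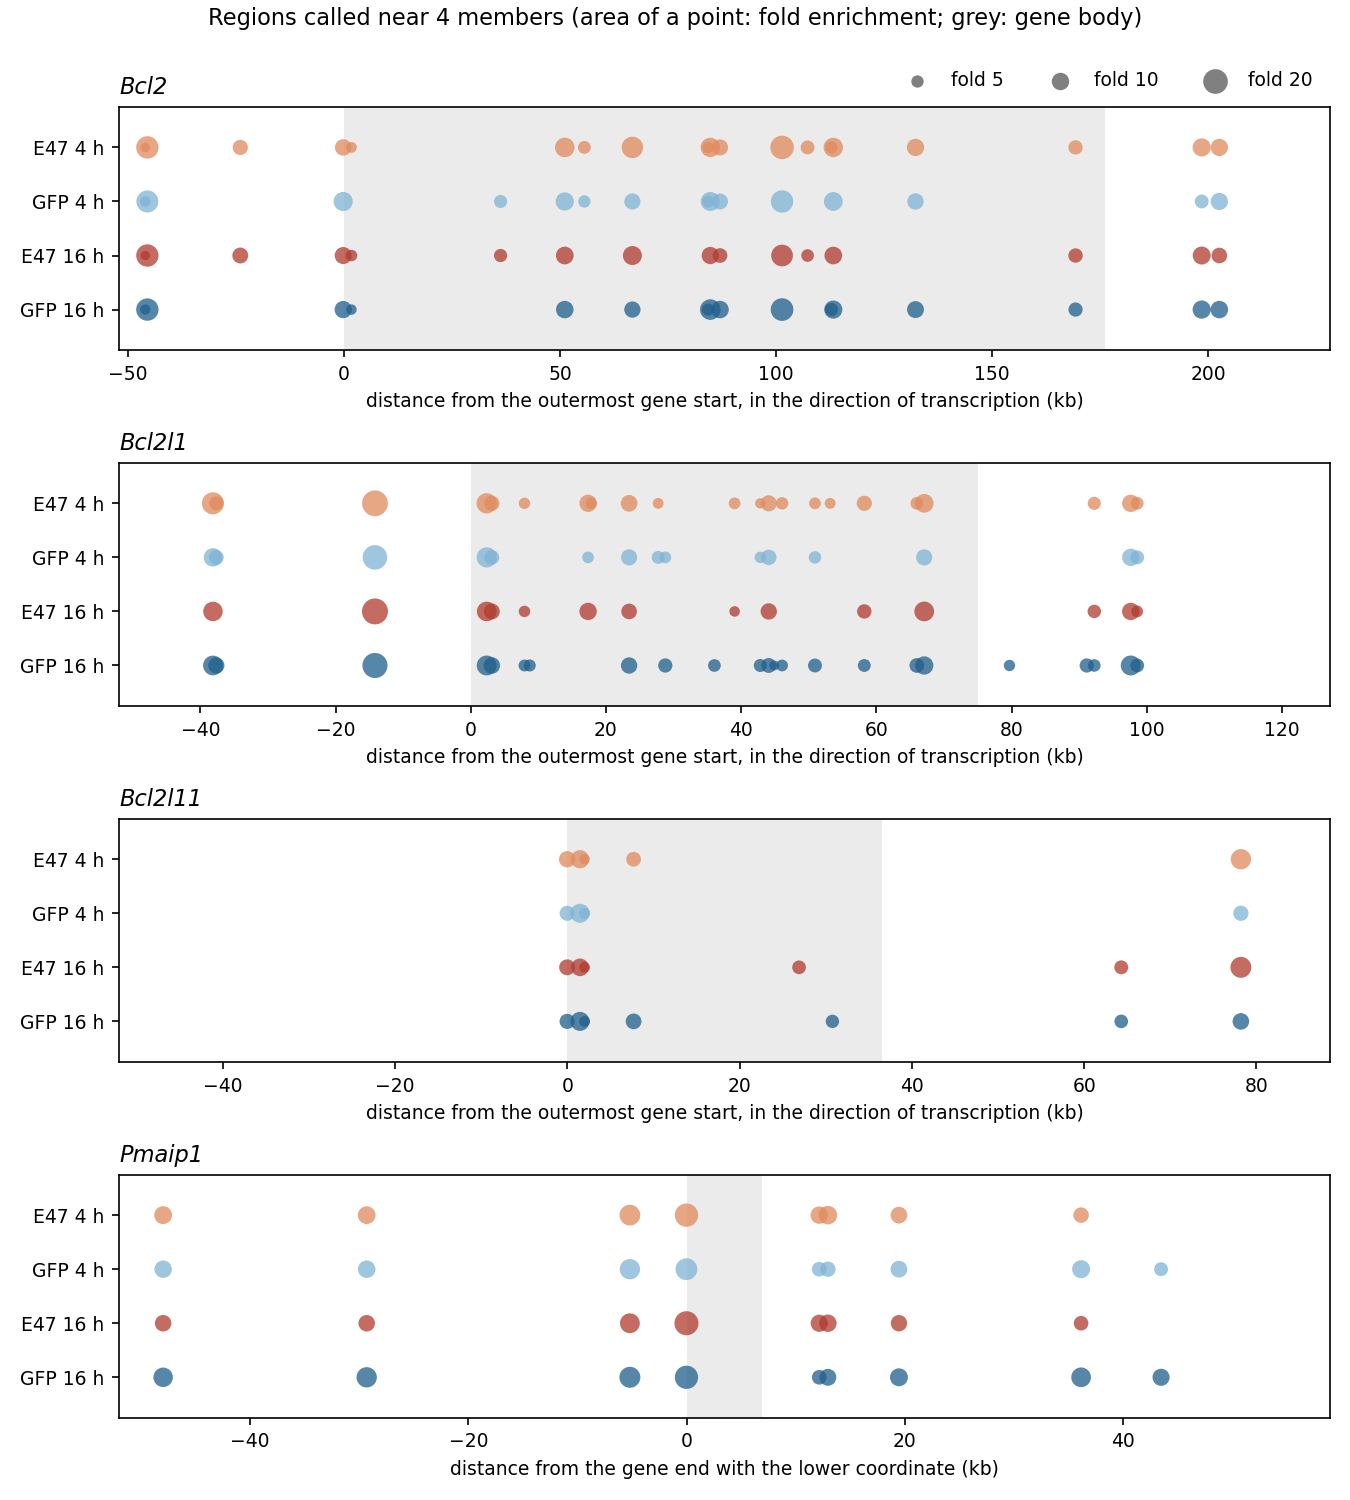
Regions called near Bcl2, Bcl2l1, Bcl2l11 and Pmaip1, with a row for each group list and the distance from the gene start in kb on the x axis (for Pmaip1 from the gene end with the lower coordinate). Point area is the fold enrichment and the grey band is the gene body; at Bcl2l11 the point beyond the gene is larger in the E47 rows (13.6 and 14.4) than in the GFP rows (7.68 and 9.09), and inside Bcl2l1 many small points appear in 1 or 2 rows.

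The effectors Bax and Bak1 encode the proteins that perforate the outer mitochondrial membrane. The Bax start (gene at chr7:45461695-45466903) had folds of 14.5 in E47 and 16.4 in GFP at 4 h and 16.3 in E47 and 13.8 in GFP at 16 h, lower in E47 at 4 h and higher at 16 h. The highest fold of its window was beside the start of Nucb1, with 21.9 in E47 and 18.7 in GFP at 4 h and 21.0 in E47 and 20.4 in GFP at 16 h. Bax had 14 regions, 7 in all 4 lists, with 4 E47-only and 1 GFP-only region at 4 h and 1 E47-only and 2 GFP-only regions at 16 h. The strongest of them was an E47 region 46.0 kb away at 4 h (chr7:45415463-45415935, fold 5.78, percentile 25.6) and a GFP region 10.2 kb away, inside Gys1, at 16 h (chr7:45451225-45451633, fold 12.8, percentile 64.3). The GFP region at 16 h was also called in both 4 h lists, and no Bax region was called in 1 vector at both times.

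At the Bak1 start (gene at chr17:27019812-27028627), within 1 kb of a start of Ggnbp1, the fold was 10.1 in E47 and 8.28 in GFP at 4 h and 10.05 in E47 and 11.7 in GFP at 16 h. E47 was higher at 4 h and lower at 16 h, with ratios inside the range of 90% of all regions. The highest fold was at the start of Zbtb9, with 23.5 in E47 and 21.5 in GFP at 4 h and 21.0 in E47 and 20.5 in GFP at 16 h. Bak1 had 10 regions, 8 in all 4 lists, and no E47-only region at either time. A region 46.4 kb away inside Itpr3 (chr17:27074984-27075150) was GFP-only at both times, with folds of 6.36 and 6.29, and was the strongest at 4 h (percentile 15.1). At 16 h the strongest was a GFP region 9.78 kb away (chr17:27038166-27038610, fold 11.3, percentile 53.3), called in both 4 h lists as well.

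Bcl2l11 (chr2:128126038-128162547) encodes Bim, the BH3-only protein that binds all the guardians. Its regions were few, 8 in all with 4 in all 4 lists. At the upstream start the fold was 8.77 in E47 and 7.50 in GFP at 4 h and 8.38 in E47 and 7.59 in GFP at 16 h. At the downstream start it was 10.9 in E47 and 12.02 in GFP at 4 h and 10.2 in E47 and 11.9 in GFP at 16 h. E47 was thus higher at the start whose window holds CAGCTG and lower at the start without an E-box, at both times, with all 4 ratios inside the range of 90% of all regions. This order did not hold at Bmf, whose upstream start also holds CAGCTG and was lower in E47 at both times. Among other starts without an E-box, that of Bid had ratios just above 1 at both times (1.03 and 1.05). That of Bcl2 was below 1 at both (0.743 and 0.975), and that of Bak1 was above 1 at 4 h and below at 16 h. The most upstream Bbc3 start, also without an E-box, had 7.02 in E47 and 7.21 in GFP at 4 h. At 16 h it had 7.19 in E47 and 6.85 in GFP. Whether E-boxes bear on these ratios was not tested.

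The Bcl2l11 region with the highest fold in both E47 lists was distal, while in both GFP lists the downstream start was highest. It lay at chr2:128203762-128204572, 41.7 kb beyond the gene, with no other protein-coding gene nearer. Its fold was 13.6 in E47 and 7.68 in GFP at 4 h, and 14.4 in E47 and 9.09 in GFP at 16 h. The E47 over GFP ratios were 1.77 and 1.59, and 0.266% of all regions in 4 lists had both as high. Its strength was at percentile 60.8 in E47 and 22.8 in GFP at 4 h, and 62.8 in E47 and 31.5 in GFP at 16 h. Between 4 h and 16 h the fold moved little in either vector (1.06-fold in E47 and 1.18-fold in GFP). The remaining calls were weak. Bcl2l11 had 2 E47-only and 0 GFP-only regions at 4 h and 2 of each at 16 h, the strongest being 1 region inside the gene (chr2:128133669-128134190), called in E47 at 4 h (fold 7.19, percentile 20.5) and in GFP at 16 h (fold 8.16, percentile 23.9).

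Bbc3 (chr7:16308398-16318334) encodes Puma, the p53-induced activator of death. Its start region covered its annotated starts and had 8.20 in E47 and 8.56 in GFP at 4 h and 8.25 in E47 and 7.82 in GFP at 16 h, close to level. The highest fold was at the start of Ccdc9, with 12.8 in E47 and 14.0 in GFP at 4 h and 13.2 in E47 and 13.1 in GFP at 16 h. Of 21 regions, 12 were in all 4 lists. There were 3 E47-only and 1 GFP-only region at 4 h and 2 of each at 16 h, none of them at both times. The strongest were an E47 region 44.0 kb away at 4 h (chr7:16362000-16362464, fold 5.48, percentile 26.1) and a GFP region inside the gene at 16 h (chr7:16312786-16312958, fold 2.74, percentile 28.9), each called in no other list. The 50 kb limit fell between regions at Bbc3: a region with a summit 49.96 kb from the gene counted, with folds of 6.15 in E47 and 4.38 in GFP at 4 h and 5.45 in E47 and 6.51 in GFP at 16 h. The nearest one outside, at 51.5 kb, had 6.44 in E47 and no call in GFP at 4 h, and 4.65 in E47 and 6.27 in GFP at 16 h.

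Pmaip1 (chr18:66458604-66465558) encodes Noxa, which binds Mcl-1 and promotes its degradation. Its region at the lower-coordinate gene end had 17.9 in E47 and 15.7 in GFP at 4 h and 19.1 in E47 and 17.8 in GFP at 16 h, the highest fold of its window in each list. Of its 9 regions, 8 were in all 4 lists, and the other (chr18:66501813-66502377), 36.5 kb away, was GFP-only at both times with a fold of 6.37 at 4 h (percentile 10.3) and of 9.65 at 16 h (percentile 35.6). Differences in fold ran both ways within the window. At chr18:66470662-66471383, 5.21 kb from the gene, the fold was 9.95 in E47 and 7.10 in GFP at 4 h and 9.74 in E47 and 7.10 in GFP at 16 h. At chr18:66494679-66495057, 29.2 kb away, it was 7.93 in E47 and 10.7 in GFP at 4 h and 7.02 in E47 and 12.8 in GFP at 16 h. The nearer region was thus higher in E47 (1.40-fold and 1.37-fold; 1.09% of all regions in 4 lists had both ratios as high), and the farther one lower (ratios of 0.742 and 0.550; 1.33% of them had both as low).

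Bmf (chr2:118528757-118549686) encodes a BH3-only protein linked to loss of attachment and to cytoskeletal stress. Its upstream start had folds of 6.51 in E47 and 7.44 in GFP at 4 h and 7.15 in E47 and 8.37 in GFP at 16 h, lower in E47 at both times. The downstream start had 5.81 in E47 and 5.71 in GFP at 4 h, and at 16 h no call in E47 and 5.11 in GFP. That region (chr2:118543791-118544611, percentile 38.6 in GFP at 16 h) was the strongest Bmf region called in 1 vector at 16 h. The middle start, with 2 copies of CAGCTG, had no region in any list. The highest fold was at the start of Srp14, with 20.4 in E47 and 18.0 in GFP at 4 h and 19.4 in E47 and 17.0 in GFP at 16 h. Bmf had 11 regions, 6 in all 4 lists, with 3 E47-only and 0 GFP-only regions at 4 h and 2 E47-only and 1 GFP-only region at 16 h. The strongest at 4 h was an E47 region 4.90 kb before the gene (chr2:118554352-118555045, fold 9.61, percentile 49.6), with 6.87 in E47 and 5.18 in GFP at 16 h. A region 29.3 kb from the gene, chr2:118499054-118499932, was E47-only at both times, with 6.53 at 4 h and 7.77 at 16 h.

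Bid (chr6:120893119-120917062) encodes the BH3-only protein that caspase-8 cleaves after death receptor signals. Its start had folds of 19.5 in E47 and 18.8 in GFP at 4 h and 19.7 in E47 and 18.7 in GFP at 16 h, the highest in its window and level between groups. Of 8 regions, 6 were in all 4 lists. There were 2 E47-only and 0 GFP-only regions at 4 h and 0 E47-only and 3 GFP-only regions at 16 h. At 4 h the strongest was an E47 region 40.5 kb away (chr6:120957258-120957634, fold 5.08, percentile 22.7), and at 16 h a GFP region beside the start (chr6:120916188-120916301, fold 3.72, percentile 12.7). Each of these regions was called in E47 at 4 h and in GFP at 16 h, and in no other list.

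As at Pmaip1, Bid had a distal region higher in E47 and another lower. At chr6:120866486-120866716, 26.5 kb from Bid and inside Bcl2l13, the fold was 12.4 in E47 and 8.06 in GFP at 4 h and 9.28 in E47 and 5.75 in GFP at 16 h (1.54-fold and 1.61-fold). Its strength was at percentile 55.4 in E47 and 26.1 in GFP at 4 h, and 36.5 in E47 and 3.17 in GFP at 16 h. The GFP call at 16 h was thus among the weakest of its list. Fold fell between the times in both vectors there, to 0.749 of the 4 h value in E47 and 0.714 in GFP, and 0.404% of all regions in 4 lists had both ratios as high. At chr6:120956250-120957189, 39.5 kb away and inside Mical3, it was 5.72 in E47 and 7.99 in GFP at 4 h and 5.06 in E47 and 9.47 in GFP at 16 h (ratios of 0.716 and 0.534; 0.910% of them had both as low). All the regions singled out for their ratios were chosen after their values were seen.

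Between 4 h and 16 h the lists near these genes shrank in E47 and grew in GFP, as the whole lists did. Of the E47 regions at 4 h, 29 of 122 (23.8%) had no call at 16 h, beside 25.3% of all regions of that list, and 10 of 105 at 16 h (9.52%) had none at 4 h, beside 7.73%. Of the GFP regions at 4 h, 8 of 102 (7.84%) had no call at 16 h, beside 8.02%, and 25 of 121 at 16 h (20.7%) had none at 4 h, beside 24.8%. By position, 28 of 35 member regions within 1 kb of any gene's start were in all 4 lists (80.0%), beside 75.02% of all regions at such starts. Of 70 inside a gene away from a start, 26 were (37.1%), beside 40.1%, and of 30 outside genes 16 were (53.3%), beside 41.2%. Chromosome 18, with Pmaip1, has no start entries and is left out of these shares. The member was the nearest gene for 79 of the 144 regions.

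Fold ratios were also close to those of all regions. The median log2 ratio of E47 to GFP was 0.07 at 4 h over 90 shared member regions and 0.09 over all shared regions, and −0.08 at 16 h over 87 and −0.09 over all. Above the 95th percentile of all ratios lay 6 member regions at 4 h and 5 at 16 h, and below the 5th percentile 4 and 3. Of the 78 member regions in all 4 lists, 21 were higher in E47 at both times (26.9%), beside 27.4% of all, and 22 were lower at both times (28.2%), beside 22.5%. The distal Bcl2l11 region and the Bid region inside Bcl2l13 were the 2 with a ratio of 1.5 or more at both times (2.56%, interval 0.312 to 8.96), beside 0.492% of all regions in 4 lists. The GFP call of the Bid region at 16 h was weak, at percentile 3.17 of its list. Of the 78, 0 had a ratio of 1/1.5 or less at both times (interval up to 4.62%), beside 0.421% of all.

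**Figure D4:**
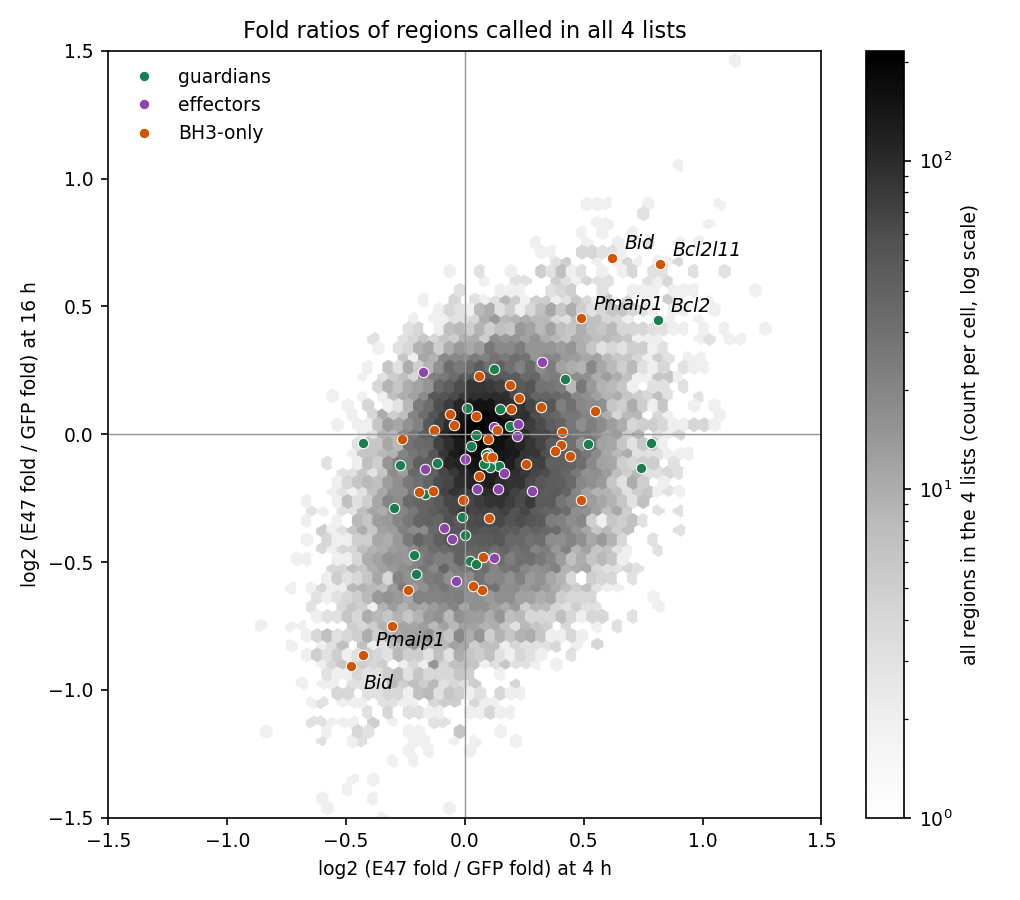
Log2 ratio of E47 to GFP fold at 4 h (x axis) and 16 h (y axis) for regions in all 4 lists, with all regions as shaded cells (count on a log scale) and the member regions as points coloured by role. Most member points lie in the dense part, and the labelled ones are the Bcl2l11, Bid, Bcl2 and Pmaip1 regions higher in E47 at both times and the Bid and Pmaip1 regions lower at both.

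The other genes of the pathway are given as counts beside the same shares over all genes (16.2% with a region E47-only and 19.4% with one GFP-only at both times) and over all regions (48.8% in all 4 lists). Like the members, both lists below had more regions per gene, a median of 8 and then 10.5, against 6 over all genes. Of 15 further Bcl2 family genes, 14 had a region, 4 had one E47-only at both times and 5 one GFP-only at both times, and 53.8% of their 130 regions were in all 4 lists. Bcl2l10, known for its expression in oocytes, had 1 E47-only region (folds 10.4 and 12.03 at 4 h and 16 h) and 2 GFP-only regions, and Bik, a BH3-only gene, had 1 of each. Of 16 genes that act at or after cytochrome c release, all had a region, 5 had one E47-only at both times and 4 one GFP-only at both times, and 54.8% of their 146 regions, counted once each, were in all 4 lists. Vdac1, the mitochondrial outer membrane channel, had 2 E47-only regions (folds 9.59 and 8.89 for the stronger one). Htra2, a protease that degrades caspase inhibitors, had 1 E47-only and 1 GFP-only region. Birc2, an inhibitor of cell death signalling, also had 1 of each, and its E47-only region is shared with the neighbouring Birc3. The paralogous copies Bcl2a1a, with no region, and Bcl2a1b, with 1 GFP-only region, are uncertain because their sequences are nearly identical.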

How the data were processed

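ATAC-seq peak lists of 8 thymic ILC2 samples in 4 groups of 2 were analysed, grouped by sample title. The descriptions give another vector for replicate 1 than for replicate 2 in every group, which goes against the titles and transduction labels, and were left aside. The tools named per the submitters' processing notes are MACS2, Bowtie2, cutadapt and DiffBind, with mm10 as the build and no settings. The authors deposited 1 conservative list of reproducible peaks (IDR) for each group, with a fold enrichment (a ratio over background), a −log10 p and a score of 540 to 1000 per peak. Per the labels, tracks were pooled by group and free of duplicate and mitochondrial reads. Calls and −log10 p grow with depth, which is unknown.

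Overlapping lines were merged (pandas 2.3.3, Python 3.11.15) and linked between lists at an overlap of 1 bp, tested on simulated data. Gene bodies and promoters are RefSeq's (GRCm38.p6), without exons. For markers, annotated starts were added to gene ends (within 1 kb). At each member the text names the start region, that of highest fold, every region called in 1 vector at both times and the strongest called in 1 vector at a time; of each further list it names up to 4 genes with the most regions called in 1 vector at both times. Members and lists were chosen with earlier results of these data known.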

Additional observations from a re-analysis of the deposited data

Results flagged for a closer look

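At 3 genes the balance of E47-only minus GFP-only regions pointed one way at 4 h and the other at 16 h. It was 7 at 4 h and -9 at 16 h at Bcl2l1, 3 and -1 at Bax, and 2 and -3 at Bid. No test of this difference could be made with 1 list per group, so it was not tested. Over all 10 members the counts were 29 E47-only and 9 GFP-only regions at 4 h, and 15 E47-only and 31 GFP-only regions at 16 h. The whole lists shifted the same way. At 4 h, 24.9% of all E47 regions were E47-only and 12.4% of all GFP regions GFP-only. At 16 h these shares were 11.8% and 31.6%. The length of the lists moves with this balance: it was 49811 regions in E47 and 42665 in GFP at 4 h, and 40649 in E47 and 52846 in GFP at 16 h. With lists of equal length the counts over the 10 members were 21 E47-only and 8 GFP-only at 4 h, and 23 E47-only and 21 GFP-only at 16 h, so the balance over the members did not reverse; the single genes were not recounted in this way.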

How the results depend on the processing

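No paired analysis was possible because each list holds a whole group and no values per sample are analysed here; for the same reason no replicate could be left out. Of 66 summary values under alternatives (50% overlap, lists cut to equal length, stronger regions, other windows, nearest gene, single summits, fold of the peak with the highest −log10 p), 57 stayed within the interval or spread of the reported value, 9 moved and 0 reversed. The fold alternative, applied to the ratios of named regions after seeing the data, changed neither these ratios nor the medians and so is no check of them. Among regions above the median strength of their list, E47-only shares were 3.08% at 4 h and 3.70% at 16 h (2.52% and 1.10% of all such regions), GFP-only shares 0% at 4 h, 5.88% at 16 h and 0% at both times (0.459%, 6.76% and 0.287%), and 97.6% of regions were in all 4 lists (97.7%). The mean number of regions per member, 14.4, became 7.8 within 10 kb, 21.9 within 100 kb and 8 where the member was the nearest gene. Cutting each list to its 40649 strongest regions raised the E47-only share to 21.9% at 16 h and to 7.81% over both times, and lowered the GFP-only share to 20.8% at 16 h. Over all regions the same shares moved from 11.8% to 18.8%, from 3.43% to 4.74% and from 31.6% to 19.3%. The GFP-only share over both times rose from 2.78% to 3.91%, and over all regions from 4.56% to 5.01%.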

Other observations

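Among genes of the caspase pathway, Birc5, which encodes the cell division and survival protein survivin, had the strongest region called E47-only at both times, chosen after its values were seen. It lay at chr11:117871545-117872702, 16.2 kb from the gene, where its fold was 8.60 at 4 h and 9.84 at 16 h, with strengths at percentiles 65.9 and 72.8 of the E47 lists.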
